A study of Mus musculus with 15 samples.

Results

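T11 and 2151R are a pair of transplantable mammary tumour models of the mouse in which epithelial genes are low and mesenchymal genes are high. They were compared by setting the 1 T11 sample of the study against its 4 samples of 2151R, chosen by the model name in the sample titles, which makes 5 of the 15 samples. All 15 are labelled as mouse mammary tumor of strain Balbc with genotype p53-NULL, grown in vivo, so both models lack the tumour suppressor p53. The other 10 samples belong to the models 2225L (2 samples) and 2208L (8 samples) and serve here only as a reference range. In their titles, 4 samples of 2208L carry PBS, 3 carry 3day nt and 1 carries ROSEN, and those of 2225L carry T-Vivo or ROSEN, without further explanation. No age or treatment is given for T11. Of the 2151R samples, replicates 3 and 4 carry NT2 and NT in their titles, and replicates 1 and 2 (2151R-5310 and 2151R-53ca) carry terms that the labels do not explain. Values of 2151R are listed below in the order of replicates 1 to 4, an order taken from the accessions that pairs no samples.

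A mammary tumour with little E-cadherin, few tight-junction claudins and high levels of vimentin and of the Zeb, Snail and Twist transcription factors is described as claudin-low or mesenchymal-like. These transcription factors repress epithelial genes by binding E-box motifs in their promoters, a step of the epithelial to mesenchymal transition (EMT). Within such a state, tumours can still differ in the lineage and positional genes that they keep or gain, in the signals they send and in the other cells they hold.

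Poly(A) RNA-seq gave 1 centred log2 value for each of 17271 genes in each sample. The reference that each gene was centred on is not stated, so only differences within a gene can be read. No gene can be called more abundant than another. A difference of 1 between samples is a doubling of the value before the logarithm, which may include an offset that is not given. At very low values a distance may therefore not be a fold change in expression, and such values cannot be told from the absence of reads. The sample medians were 0.10 in T11 and -0.04 to 0.09 in 2151R. Sequencing depth is unknown, since no counts were given. With 1 T11 sample, which has no replicate, against 4 there are only 5 arrangements of the samples, an exact permutation test could not give a p below 0.2, and no test of T11 was made. Instead, a gene is called far above or far below when T11 lay at least 2 log2 units (4-fold) beyond the highest or the lowest of the 4 values of 2151R. The distance to that range is the value given for each gene unless a difference from the median is named. In 727 genes (4.21%) at least 2 samples hold exactly the same value, here called a repeated value, which may not be a measured level. The library numbers of T11 and of 2151R lie in separate ranges, so the effect of model and that of library number cannot be told apart. The samples are bulk tumours, in which fewer cells of a type and less RNA per cell cannot be told apart.

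T11 lay far above the 2151R range at 552 genes, 3.20% of all genes, and far below it at 448 genes, 2.59%. At any distance it lay above the range at 39.9% of genes and below it at 30.8%, and it lay inside the range at 29.3%. The 4 samples of 2151R were close to each other, with a median range of 0.526 and a median SD of 0.236 per gene. The far distances were larger than the whole 2151R range in 519 of the 552 genes and in 419 of the 448. T11 differed by 2 or more from the 2151R median at 9.48% of genes, from the 2208L median at 16.4% and from the 2225L median at 25.3%. By this count 2151R was the model nearest to T11. At 179 of the genes far above (32.4%) T11 also lay at least 2 above all 14 other samples, which is 1.04% of all genes. At 163 of the genes far below (36.4%) it lay at least 2 below all 14, which is 0.944%. At 177 of the genes far above and 173 of those far below, T11 lay inside the range of 2225L and 2208L, and in 96 and 93 of these the 2151R median lay outside it.

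**Figure D1:**
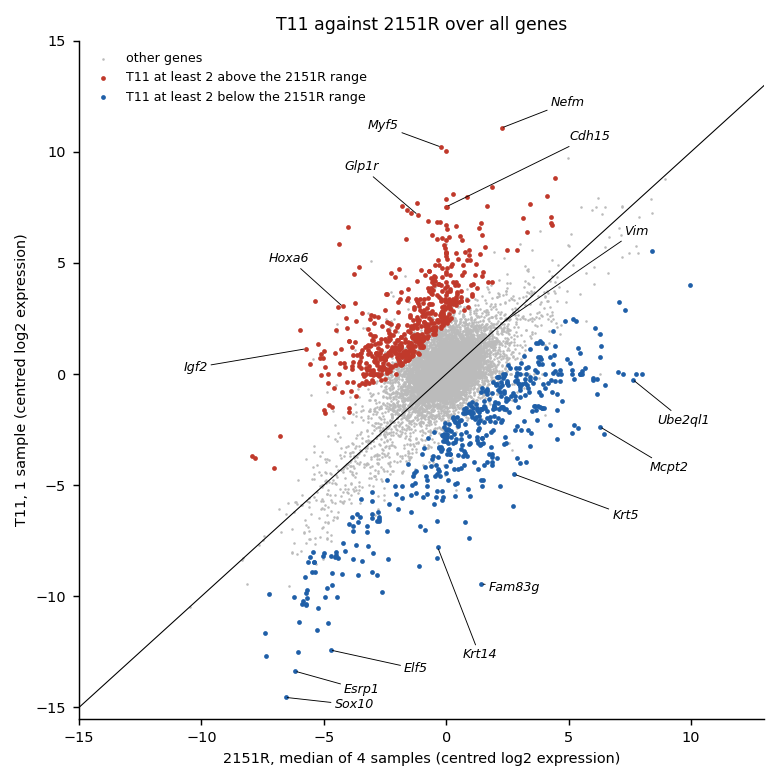
Centred log2 expression of every gene in T11 (y axis) against the median of the 4 samples of 2151R (x axis), with the line of equal values. The 552 genes far above the 2151R range are red, the 448 far below are blue, and 15 genes are named, among them Sox10 at -14.55 in T11.

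The deleted gene of the models was examined first. Trp53 read -0.01 in T11 and 0.20, 0.29, 0.09 and 0.19 in 2151R (0.19 ± 0.08, SD, n = 4). T11 lay 0.10 below the range. All samples carry the same genotype label, so this reading does not check it.

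Several mesenchymal genes had close values in T11 and 2151R. Vim, the intermediate filament of mesenchymal cells, read 2.28 in T11 and 2.23, 2.32, 2.24 and 2.27 in 2151R, and -1.39 to -0.14 in the 10 samples of the other models. T11 thus lay inside the 2151R range, and the other models lay below both. Zeb1, the E-box repressor of epithelial genes, read 3.92 in T11 and 2.91 to 3.57 in 2151R, and 0.00 or lower in every other sample. Its paralogue Zeb2 read 2.27 in T11 and 1.44 to 2.25 in 2151R. Hmga2, a chromatin protein of embryonic and mesenchymal cells, read 2.49 in T11 inside a 2151R range of 2.25 to 2.64, and the receptor kinase gene Axl read 2.60 against 1.86 to 2.36. Twist2 lay inside the 2151R range as well, and Twist1 lay 0.35 above it.

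Among 15 EMT transcription factors 3 lay far above the 2151R range and none lay far below. The share far above was 3.20% over all genes. The median difference from the 2151R median was 0.34, where the median over all genes was 0.09. Snai2, which encodes Slug, read 0.77 in T11 and -3.06, -2.04, -2.60 and -2.84 in 2151R, a distance of 2.81. Foxc2 lay 2.63 above the range and Klf8, on the X chromosome, 2.85. Snai1 read 1.10 in T11 and -0.40 to 0.23 in 2151R. Zeb1, Zeb2 and Snai1 were therefore no lower in T11 than in any sample of 2151R. The highest Snai2 value outside T11 was 0.36, in 2225L, and 2208L did not exceed -1.97.

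Structural genes of mesenchymal cells lay on both sides of the range. Of 19 genes 9 lay above it, 2 of them far, and 5 below, 1 of them far, and the median difference was 0.24. The shares over all genes were 39.9% above and 30.8% below. Their mean, each gene taken relative to its mean over the 15 samples, was 0.95 in T11 and 0.10 to 0.82 in 2151R. S100a4, also called fibroblast-specific protein, read 5.35 in T11, 0.41 to 1.14 in 2151R and 0.00 or lower elsewhere, and stood 4.20 above all 14 other samples. Ncam1, a neural cell adhesion molecule, read 3.03 in T11 and -1.81 to -0.62 in 2151R. Fn1, fibronectin, lay 1.88 above the range. Thy1, a surface glycoprotein of fibroblasts and stem cells, read -1.53 in T11 and 0.73 to 1.50 in 2151R. Cdh2 (N-cadherin) lay 0.66 below the range and Cd44, the hyaluronan receptor, 0.86 below.

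Epithelial genes, already low in 2151R, were lower again in T11. Of 18 epithelial junction genes 15 lay below the 2151R range, 6 of them far below, and the median difference was -1.51. Of 18 epithelial regulators 14 lay below the range, 9 of them far below, and the median difference was -2.77. Over all genes 30.8% lay below the range and 2.59% far below. The mean of the junction genes, each gene taken relative to its mean over the 15 samples, was -5.45 in T11, -3.66, -3.94, -3.39 and -3.65 in 2151R and at least 1.79 in all 10 other samples. The same mean over the regulators was -6.25 in T11 and -3.41 to -3.10 in 2151R. T11 lay below each 2151R sample in both, and the other models lay well above. The calls depended on the scaling. When all samples were forced to the same distribution by quantile normalization, the junction genes far below went from 6 to 0 and their median difference to -0.27, and the regulators went from 9 to 4 with a median of -0.85.

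The promoters of 4 of these genes are shown because Zeb, Snail and Slug bind the E-box CACCTG and because the genes lay far below. They were taken by rule as those with the largest distance among junction genes and regulators that have an entry in the RefSeq promoter table (build GRCm38.p6). Each runs from 250 bases before to 50 bases after the gene's start, 5' to 3' on the gene's strand, with CACCTG or its reverse complement CAGGTG in capitals.

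Elf5, chr2:103411848-103412147, + strand: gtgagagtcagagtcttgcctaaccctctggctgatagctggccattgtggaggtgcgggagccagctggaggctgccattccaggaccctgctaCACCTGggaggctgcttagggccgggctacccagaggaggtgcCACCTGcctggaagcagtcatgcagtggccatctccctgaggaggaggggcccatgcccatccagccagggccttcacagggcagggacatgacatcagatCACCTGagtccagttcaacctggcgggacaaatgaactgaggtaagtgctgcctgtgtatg
Cldn4, chr5:134946885-134947184, - strand: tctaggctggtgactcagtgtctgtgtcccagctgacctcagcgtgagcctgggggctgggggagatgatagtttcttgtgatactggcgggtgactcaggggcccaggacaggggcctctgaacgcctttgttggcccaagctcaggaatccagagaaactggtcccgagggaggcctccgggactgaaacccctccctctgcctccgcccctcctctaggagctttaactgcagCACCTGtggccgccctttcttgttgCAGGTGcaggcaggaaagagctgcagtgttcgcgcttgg
Elf3, chr1:135258423-135258722, - strand: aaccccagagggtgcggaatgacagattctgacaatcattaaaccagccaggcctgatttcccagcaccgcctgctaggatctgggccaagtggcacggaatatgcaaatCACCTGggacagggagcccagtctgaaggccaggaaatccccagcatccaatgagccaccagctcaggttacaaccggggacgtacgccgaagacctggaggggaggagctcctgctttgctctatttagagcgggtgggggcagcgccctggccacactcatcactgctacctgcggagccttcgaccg
Cldn3, chr5:134985964-134986263, + strand: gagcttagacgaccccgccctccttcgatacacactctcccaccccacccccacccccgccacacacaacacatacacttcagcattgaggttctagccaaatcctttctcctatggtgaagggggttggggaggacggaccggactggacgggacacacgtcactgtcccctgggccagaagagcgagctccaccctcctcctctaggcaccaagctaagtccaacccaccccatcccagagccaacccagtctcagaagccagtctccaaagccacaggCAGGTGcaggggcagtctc

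The Elf5 promoter holds 3 copies of the motif, the Cldn4 promoter 2, and the Elf3 and Cldn3 promoters 1 each. A second Elf5 promoter in the table holds 1. Of the 15 junction genes and regulators far below, 8 matched an entry, and the first promoter of 5 of the 8 (62.5%) holds the motif. Over the first promoters of the genes in the expression table the share was 18.1%, and over all 32851 promoters it was 20.2%. A match is a description of these letters and no evidence of binding.

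Elf5, a transcription factor of the milk-secreting alveolar lineage, read -12.42 in T11 and -4.52, -4.68, -4.76 and -5.40 in 2151R, and 0.00 to 1.65 in the other models. T11 stood 7.02 below the lowest 2151R sample. Elf3, a factor of simple epithelia, read -10.37 in T11 and -6.49 to -5.11 in 2151R, and Ehf, of the same Ets family, lay 5.91 below the range. Cldn4 read -10.51 in T11 and -5.68, -6.08, -4.44 and -4.80 in 2151R. Cldn3 read -10.05 in T11 and -6.29, -6.40, -5.87 and -6.14 in 2151R. For both tight-junction claudins the 1 T11 sample lay below all 4 samples of 2151R, as it did at 30.8% of all genes. Under quantile normalization the distance was -1.98 for Cldn4, -0.93 for Cldn3 and -1.31 for Elf3.

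Esrp1, the splicing regulator that sets epithelial isoforms (chromosome 4, 11331933 to 11386783), read -13.37 in T11 and -6.01, -6.88, -5.88 and -6.33 in 2151R, a distance of -6.50. Prss8, the membrane protease prostasin, read -9.82 in T11 and -2.71 to -2.50 in 2151R, a distance of -7.11. Epcam, Cldn7, Cldn8 and Marveld3, all proteins of epithelial contacts, lay 2.16 to 3.53 below the range, and Cldn7 lay inside the range under quantile normalization. Grhl2, Spint1, Esrp2 and Spdef were the remaining regulators far below. Cdh1, which encodes E-cadherin, read -7.67 in T11 and -5.34, -6.13, -5.36 and -5.34 in 2151R. It lay 1.53 below the range and, without replicate 2, 2.31 below. Ovol1 and Klf5 lay inside the range, and Grhl3 read its repeated value of -6.22 in T11 and in 3 samples of 2151R, so not every epithelial regulator was lower in T11.

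**Figure D2:**
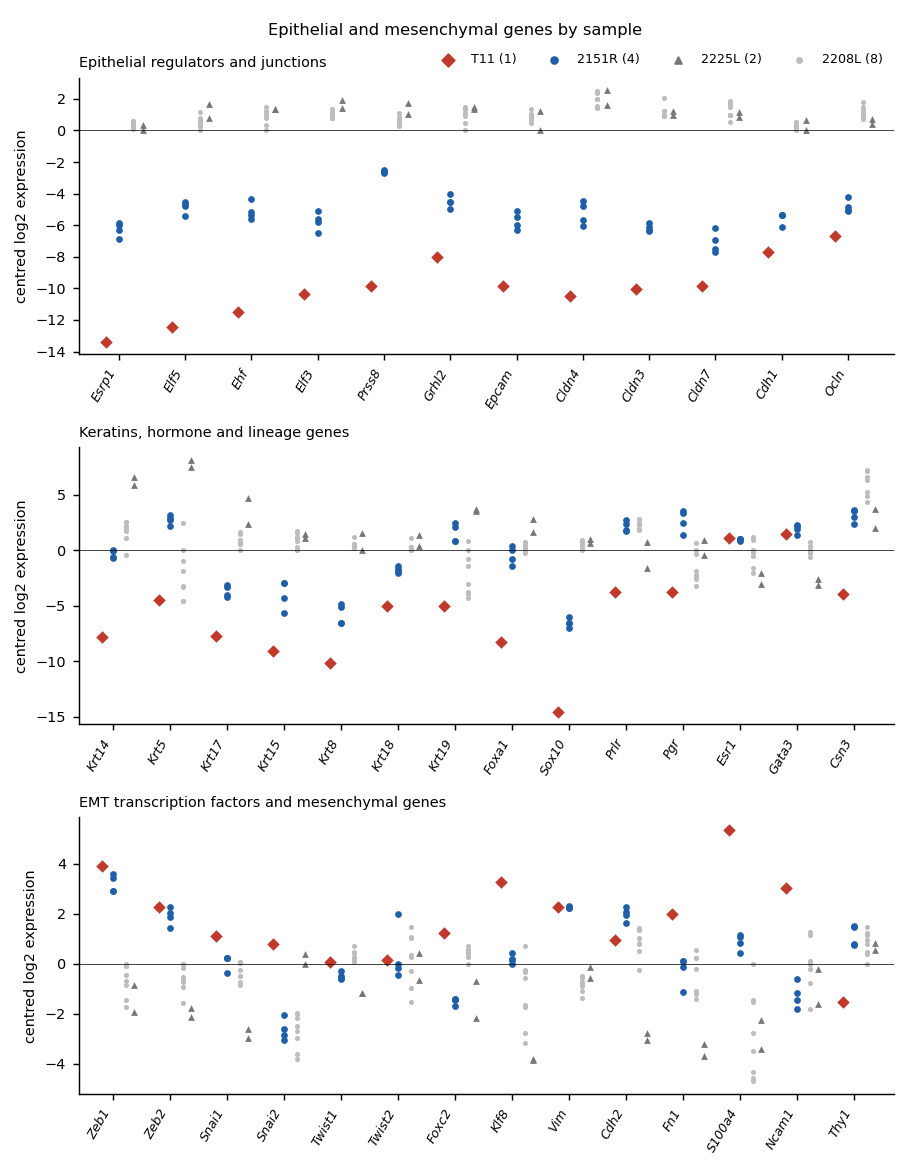
Centred log2 expression (y axis) of epithelial genes, of keratin, hormone and lineage genes, and of mesenchymal genes, with 1 point for each sample of T11, 2151R, 2225L and 2208L. T11 lies below 2151R for Esrp1 (-13.37) and Krt14 (-7.80) and level with it for Vim (2.28).

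Lineage genes of the mammary epithelium differed as strongly. Krt14, a keratin of basal cells, read -7.80 in T11 and -0.58, -0.71, -0.11 and 0.00 in 2151R. Its partner Krt5 read -4.51 in T11 and 2.70, 2.16, 2.87 and 3.14 in 2151R, with a median of -2.53 in 2208L. T11 lay inside the 2208L range for Krt5, whose lowest value was -4.59. Krt17 and Krt15 were low in 2151R too, at -4.20 to -3.13 and -5.66 to -2.92, against 0.00 or higher in the other models, and lay 3.50 and 3.39 lower still in T11, or 1.48 and 1.06 lower under quantile normalization. Of 15 basal and myoepithelial genes 5 lay far below (Krt14, Krt5, Krt17, Krt15 and the oxytocin receptor gene Oxtr) with a median difference of -2.02. The share far below was 2.59% over all genes. Trp63, the basal lineage factor, lay 1.91 below the range.

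Among 14 luminal and hormone genes 7 lay far below, against 2.59% of all genes, with a median difference of -2.22. Foxa1, the pioneer factor of hormone-responsive cells, read -8.26 in T11 and -1.41, -0.82, 0.35 and 0.05 in 2151R. Pgr, the progesterone receptor, read -3.76 in T11 and 2.45, 1.35, 3.31 and 3.48 in 2151R. Prlr, the prolactin receptor, read -3.77 in T11 and 1.70 to 2.70 in 2151R, and the keratins Krt19, Krt7, Krt8 and Krt18 lay 2.99 to 5.84 below. Under quantile normalization Krt7 lay 1.65, Krt8 0.86 and Krt18 1.69 below. Esr1, the estrogen receptor, and Gata3, the luminal lineage factor, did not follow. Esr1 read 1.12 in T11 and 0.78 to 1.01 in 2151R, and Gata3 read 1.44 in T11 inside a range of 1.34 to 2.26. Under quantile normalization the luminal genes far below went from 7 to 4 with a median difference of -1.34, and the basal genes from 5 to 3 with a median of -0.65.

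Milk protein genes were lower in T11 too, with 3 of 7 far below and 6 of 7 when replicate 4 of 2151R was left out. With all 4 samples of 2151R, 2.59% of all genes lay far below. Csn3, a casein, read -3.98 in T11 and 2.95, 3.54, 3.58 and 2.35 in 2151R. Ltf, lactoferrin, lay 4.63 below and Lalba, a subunit of lactose synthase, 2.21 below. Further lineage genes stood out among 14 of mammary stem and progenitor cells. Sox10, a factor of neural crest and mammary progenitor cells (chromosome 15, 79154913 to 79164490), read -14.55 in T11, the lowest value of the table. It read -5.98, -7.05, -6.55 and -6.58 in 2151R, and no sample of the other models read below 0.00. Cd24a, an epithelial surface protein, read -4.46 in T11 and -0.35 to 0.12 in 2151R.

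Adipocyte markers, which belong to a normal mammary gland, were lower in T11 than in 2151R as well. The mean of 12 adipocyte genes was -1.41 in T11 and 1.62, 3.44, 3.10 and 0.73 in 2151R. It was -3.53 to 1.82 in 2208L and -3.04 and 1.15 in 2225L, so T11 lay inside the range of the other models. None of the 12 lay far below all 14 other samples. Against the 2151R range 7 lay far below and 11 below, with a median difference of -4.18. The shares over all genes were 2.59% and 30.8%. Without the 5 genes that hold a repeated value, 4 lay far below. Lep, the fat hormone leptin, read -0.27 in T11 and 5.93, 6.19, 6.03 and 4.53 in 2151R, and Adipoq, Cfd, Cidec, Pck1, Plin4 and Lpl lay 2.19 to 3.37 below. The mean of 13 fibroblast genes was 0.17 in T11 and 0.23 to 2.20 in 2151R, with 1 gene far below. The mean of 16 endothelial genes, 0.64, lay inside the 2151R range, and that of 12 pericyte and smooth muscle genes was 0.31 in T11 and at most 0.20 in 2151R. The part of such cells in the keratin, hormone receptor and milk values was not tested.

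Most Hox genes were higher in T11. They encode the transcription factors that give cells a position along the body axis and lie in 4 clusters. Of the 31 Hox genes measured, 20 lay far above the 2151R range, none far below, and the median difference was 3.34. Over all genes 3.20% lay far above. The HoxA cluster on chromosome 6 had 10 of 11 genes far above, with a median difference of 5.26. HoxC on chromosome 15 had 5 of 7, HoxD on chromosome 2 had 3 of 4, and HoxB on chromosome 11 had 2 of 9.

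Hoxa6 read 3.05 in T11 and -3.08, -4.41, -4.05 and -5.02 in 2151R. Hoxa5, an anterior member of the cluster, read 2.06 in T11 and -4.32, -3.67, -4.18 and -3.89 in 2151R. Hoxa9 read 5.67 in T11 and -1.26, 0.38, 0.00 and -0.08 in 2151R. In all of these T11 lay above the 4 samples of 2151R, as it did at 39.9% of all genes. The 2208L samples read 0.08 to 1.19 for Hoxa5 and -0.01 to 2.57 for Hoxa9. T11 lay above the 2208L range for both, and 2151R lay below it for Hoxa5 but overlapped it for Hoxa9.

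Hoxc4 read 6.14 in T11 and -0.31, 1.03, -0.53 and 0.00 in 2151R, with at most 1.92 in the other models. Hoxc5, Hoxc6 and Hoxc8 also lay at least 2 above all 14 other samples, as did 9 Hox genes in all. In the HoxA cluster 3 of 11 genes did so. Hoxb3 and Hoxb4 were the HoxB members far above, at 2.58 and 3.16. Hoxa11 read 4.31 in T11, but all 4 samples of 2151R hold its repeated value, so no distance is given for it. Hoxa13 and Hoxc9 lay below the 2208L samples, whose lowest values were 4.19 and 3.67.

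**Figure D3:**
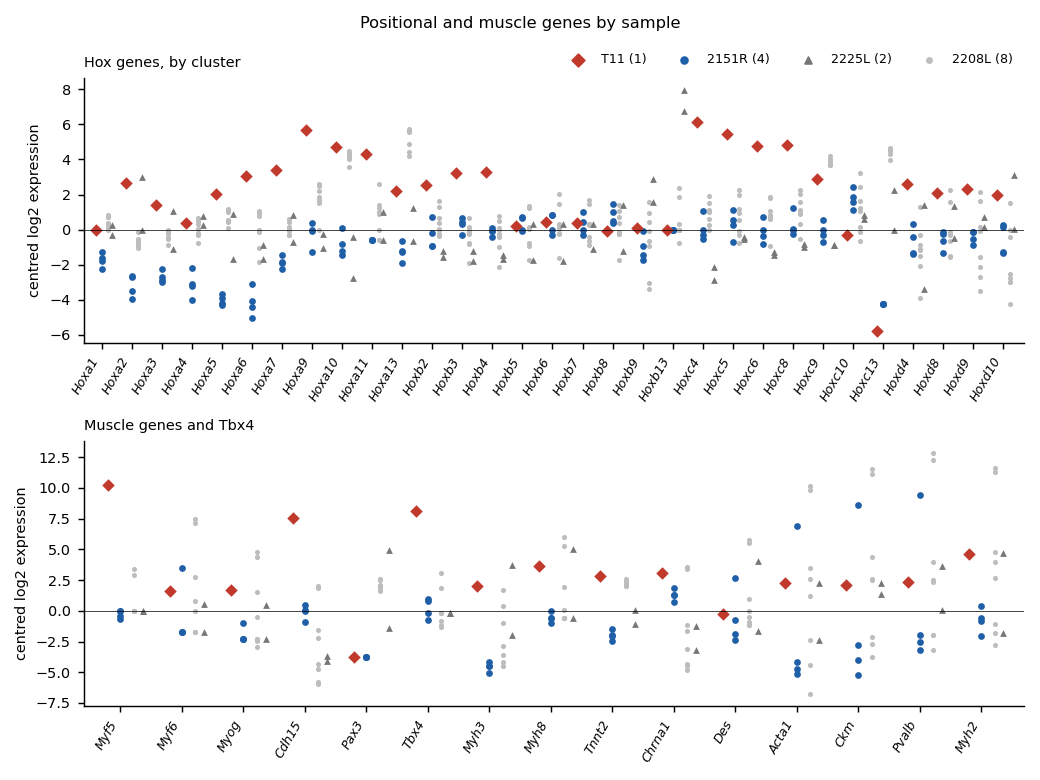
Centred log2 expression (y axis) of the 31 Hox genes in cluster order and of muscle genes and Tbx4, with 1 point for each sample of the 4 models. T11 lies above all samples of 2151R for 24 Hox genes, and replicate 3 of 2151R stands apart for Acta1 (6.94), Ckm (8.64) and Pvalb (9.45).

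Other positional transcription factors differed in both directions. Of 24 genes 3 lay far above and 4 far below, and the median difference was 0.00. Over all genes 3.20% lay far above and 2.59% far below. Tbx4, a hindlimb and lung T-box factor, read 8.12 in T11 and -0.17, 0.98, 0.77 and -0.78 in 2151R. The value of replicate 1 is a repeated value. Tbx18 and Irx5 lay 2.44 and 2.37 above, and Irx5 lay 1.90 above under quantile normalization.

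On the other side, Lmx1b, a dorsal limb factor, read -4.76 in T11 and 1.27, 1.98, 1.31 and 1.56 in 2151R. Wt1, a factor of mesothelium and kidney, read -3.14 in T11 and 1.31, 2.98, 1.22 and 1.57 in 2151R. Foxf1, a target of Hedgehog signals in gut and lung mesenchyme, read 0.06 in T11 and 4.61, 4.17, 4.06 and 4.53 in 2151R. Its neighbour, the long non-coding RNA Fendrr, chosen after its values were seen, read -0.88 in T11 and 5.77 to 6.85 in 2151R. Lhx2 lay 2.27 below. Each model thus had positional factors that the other lacked at that level.

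Some genes of early skeletal muscle were higher in T11 than in 2151R. Of 12 myogenic and embryonic muscle genes 6 lay far above and none far below, with a median difference of 3.65. The share far above was 3.20% over all genes. Of the 6, 2 also lay far above all 14 other samples, Myf5 and Cdh15, and the mean of the list, 2.62 in T11 and -1.41 to -0.20 in 2151R, reached 3.58 in 2208L. Myf5, the first of the muscle determination factors in the embryo (chromosome 10, 107482908 to 107486927), read 10.22 in T11 and 0.00, -0.43, -0.64 and 0.00 in 2151R, where the 2 values of 0.00 are repeated values. The highest value in the other models was 3.42. Cdh15, M-cadherin of muscle precursors (chromosome 8, 122848374 to 122867397), read 7.54 in T11 and 0.48, 0.00, 0.05 and -0.91 in 2151R, and stood 5.48 above all 14 other samples. Myh3 and Myh8, the embryonic and perinatal myosin heavy chains, lay 6.14 and 3.67 above, and Tnnt2 lay 4.27 above. T11 was not the highest for the myosins: replicate 1 of 2225L read 3.70 for Myh3, where T11 read 1.99, and 2208L reached 5.99 for Myh8, where T11 read 3.63. All samples of 2208L read 2.02 to 2.57 for Tnnt2, next to 2.81 in T11. Myog, the differentiation factor, read 1.66 in T11 and -2.33, -2.33, -0.97 and -2.33 in 2151R, where -2.33 is its repeated value, and 2208L reached 4.76. Without the genes that hold a repeated value, 2 of the list remained far above, Cdh15 and Tnnt2, and the median difference was 1.67. With the samples titled NT and NT2 only, the median was 2.42.

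Pax3, which acts before Myf5 in the limb, read the same repeated value of -3.77 in T11 and in all 4 samples of 2151R. Chrna1, a subunit of the muscle acetylcholine receptor, lay 1.25 above the range, and Mef2c, a partner of the myogenic factors, 1.19 above. Des, desmin, lay inside the range. The myogenic genes high in T11 were therefore some of the list and not all.

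Adult muscle genes gave another picture because replicate 3 of 2151R stood apart. The mean of 16 adult skeletal muscle genes was 0.39 in T11 and -3.83, -3.79, 4.44 and -3.96 in 2151R, and it reached 8.57 in 1 sample of 2208L. Acta1, skeletal muscle actin, read 2.26 in T11 and -4.19, -5.17, 6.94 and -4.76 in 2151R. Myh2 was the 1 adult gene far above, and without replicate 3 there were 13. Myf5 was not high in replicate 3, at -0.64, nor in most samples of 2208L, whose median was 0.00. By their mean the adult genes of T11 were thus above replicates 1, 2 and 4 and below replicate 3, and the part of admixed muscle in any of these values was not tested. Without replicate 3, the early genes far above were 7 of 12.

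Skeletal genes were more often above than below the range. Among 15 chondrogenic and osteogenic genes 3 lay far above, none far below, 11 lay above the range and 1 below, and the median difference was 1.44. The shares over all genes were 39.9% above and 30.8% below. Sp7, the osteoblast factor osterix, read 2.40 in T11 and -3.49, -3.92, -4.13 and -3.10 in 2151R, and both 2225L samples were higher than T11, at 3.02 and 3.20. Dmp1, a bone matrix protein, read 6.20 in T11 and -0.31 to 0.82 in 2151R, 4.67 above all 14 other samples. Dlx3 lay 5.46 above. For Dlx3 T11 read 1.02, inside the range of the other models, where replicate 1 of 2225L read 3.44, and 2151R read -6.73 to -4.44.

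Among 16 neural and neural crest genes 3 lay far above, 4 far below and none inside the range, with a median difference of -0.67. The shares over all genes were 3.20%, 2.59% and 29.3%. Their mean in T11, 1.02, lay inside the 2151R range of 0.87 to 1.62. Nefm, a neurofilament subunit, read 11.08 in T11 and 3.42, 1.73, 2.30 and 2.24 in 2151R, and Stmn2, a regulator of axon microtubules, lay 3.57 above. Pax6, a factor of eye and neural tube, read -2.08 in T11 and 4.34, 3.68, 3.50 and 3.70 in 2151R. Ngfr, the low-affinity neurotrophin receptor, lay 2.57 below and Gap43, a growth-cone protein, 2.30 below. Nefm and Gap43 hold repeated values outside 2151R.

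Signalling genes lay on both sides of the 2151R range. In the Hedgehog pathway, whose ligands act through Gli transcription factors, 3 of 12 genes lay far below and 1 far above. The shares over all genes were 2.59% and 3.20%. The median difference of the 12 was 0.09, the same as over all genes, with 7 positive and 5 negative. Gli1, itself a target of the pathway, read 0.47 in T11 and 3.99, 3.74, 3.85 and 3.48 in 2151R. Gli2, the main activator, read -0.29 in T11 and 3.91, 3.56, 3.11 and 3.32 in 2151R. Dhh, a ligand, lay 2.90 below the range, and Cdon, a co-receptor, lay 2.98 above. Gli3 lay inside the range. The 2151R samples were the high ones for Gli1, since the other models did not exceed 1.27.

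Of 30 Wnt pathway genes 3 lay far above and 5 far below, with a median difference of 0.10. The shares over all genes were 3.20% far above and 2.59% far below. The ligand genes Wnt10b and Wnt10a lay 3.68 and 2.59 above, and Dkk2, a secreted Wnt modulator, lay 2.84 above and above all 14 other samples by the same amount. The secreted inhibitors Frzb, Sfrp1 and Wif1 lay 4.82, 2.73 and 2.65 below, and the ligand genes Wnt4 and Wnt7b 2.45 and 2.14 below. Under quantile normalization Sfrp1 lay 1.76, Wif1 1.32 and Wnt4 1.56 below. Under quantile normalization 2 of the 5, Frzb and Wnt7b, remained that far below. Of 18 Notch genes none lay far in either direction, 11 lay above the range and 4 below. Spry1, a feedback inhibitor of FGF signals, lay 2.26 above while the receptor Fgfr2 lay 2.40 below. Of 31 TGF-beta and BMP genes 17 lay above the range and 8 below, with a median difference of 0.73. The 1 far outside was Gdf6, a BMP family ligand, at 2.38 below. Beside the Notch and TGF-beta counts, the shares over all genes were 39.9% above the range, 30.8% below and 5.79% far outside.

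Growth factor genes included some with large distances. Igf2, an imprinted fetal growth factor (chromosome 7, 142650768 to 142666816), read 1.14 in T11 and -5.92, -5.56, -4.01 and -8.32 in 2151R, a distance of 5.14. The 2225L samples read 0.91 and 1.47, next to T11. Pdgfc, a ligand of the PDGF receptors, lay 2.36 above. Grb10, an imprinted inhibitor of insulin receptor signals, read -0.42 in T11 and 3.31 to 3.79 in 2151R. Peg12 lay 2.02 above, or 1.92 with each sample centred on its median and 1.90 under quantile normalization. Of 17 imprinted growth genes 2 lay far above and 1 far below, and the median difference was -1.18. At any distance 5 lay above the range and 9 below, where the shares over all genes were 39.9% and 30.8%. Ntrk2 and Ntrk3, the neurotrophin receptors TrkB and TrkC, lay 3.25 and 2.12 below, and Ntrk3 lay 1.53 below under quantile normalization. Epha7, an ephrin receptor, lay 4.88 below, and Epha3 and Ephb2 lay 2.76 and 2.05 above, with 1.91 for Ephb2 after centring. Ankrd1, a target of the Hippo effector Yap, read 4.35 in T11 and -1.02 to 0.47 in 2151R. It was the 1 gene far above among 18 Hippo genes, whose median difference was 0.17. Beside the imprinted and Hippo counts, the shares over all genes were 3.20% far above and 2.59% far below.

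Matrix and adhesion genes were mixed. Of 24 integrin and laminin genes 5 lay far above (Itga10, Lama5, Itga8, Itgb5 and Itga11, at 2.07 to 4.08) and none far below, with a median difference of 0.14. Itga11 lay 1.93 above after centring and 1.98 above under quantile normalization. Itga8 read 0.67 in T11, below the 2208L range of 0.89 to 3.31. Itga10, a collagen-binding integrin of cartilage, read 4.19 in T11 and 0.11, -0.43, -0.45 and -0.46 in 2151R. The protease inhibitor genes Timp3 and Timp2 lay 2.51 and 2.12 above (Timp2 1.99 after centring) and the membrane protease Mmp16 2.30 above, whereas the secreted proteases Mmp3 and Mmp10 lay 2.54 and 2.09 below. Spp1 (osteopontin), Ogn and Comp lay 2.94 to 3.34 above. Comp read 1.76 in T11, and 2208L reached 3.92. Of the 20 genes in a list of fibrillar and basement collagens none lay far above, and Col9a1 and Col4a6 lay 4.64 and 2.89 below. Both missed the 2-unit distance under quantile normalization. Col1a1, the main fibrillar collagen, lay inside the range. Beside the integrin and collagen counts, the shares over all genes were 3.20% far above and 2.59% far below.

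Proliferation genes were slightly lower in T11. Of 24 mitosis and replication genes 20 lay below the 2151R range, none lay far outside it, and the median difference was -0.74. Mki67 read -0.11 in T11 and 1.09, 0.00, 0.45 and 0.77 in 2151R. Ccnb1, mitotic cyclin B, lay 0.45 below the range and Mcm2, of the replicative helicase, 0.29 below. Ccnd2, a G1 cyclin, read 0.29 in T11 and -2.99, -3.17, -3.80 and -3.38 in 2151R. The cyclin-dependent kinase inhibitor genes Cdkn2b and Cdkn2a lay 2.14 and 1.84 above. The share of genes below the range was 30.8% over all genes, and the share far outside it was 5.79%. None of 15 p53 target genes lay far outside the range, which a list of this size cannot set apart from that share.

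Of 20 hypoxia and glycolysis genes 14 lay above the range and 1 far above, with a median difference of 0.81. The share above the range was 39.9% over all genes. Car9, a carbonic anhydrase induced by hypoxia, read 2.61 in T11 and -1.40, -0.45, -2.28 and -0.60 in 2151R. None of 23 interferon response genes lay far outside the range, and their median difference was 0.00. A list of this size cannot set that count apart from the share of 5.79% over all genes.

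Macrophage genes were near or slightly above the 2151R range in T11. Of 19 genes 11 lay above the range and none far outside it, where 39.9% of all genes lay above and 5.79% far outside. The mean of the 19 genes was 0.94 in T11, 0.76, 0.87, 0.48 and 0.56 in 2151R and at most 0.45 elsewhere. Csf1r, the receptor for the macrophage growth factor, read 1.83 in T11 and 1.18, 0.91, 0.82 and 0.87 in 2151R, while Cd68 lay 0.11 below the range and Mrc1 inside it. The 15 T cell genes and the 16 endothelial genes gave 0 far in either direction. Lists of this size cannot set 0 apart from the share of 5.79% over all genes.

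All 7 MHC class II genes, which present antigen, lay above the range, with a median difference of 2.47. Over all genes 39.9% lay above the range and 3.20% far above. Cd74, the invariant chain, read 1.77 in T11 and -1.03, -0.47, -1.23 and -1.29 in 2151R, and H2-DMb1 lay 2.03 above. With all samples centred on their medians, H2-DMb1 lay 1.89 above, so 1 of the 7 was far above, and without replicate 2 of 2151R there were 5. The 2208L samples reached higher values, up to 2.29 for H2-Aa, where T11 read 1.53.

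Of 13 dendritic and mast cell genes 7 lay below the range, 5 of them far, 5 lay inside it and 1 above. The median difference was -0.82, and the share far below was 2.59% over all genes. Without the genes that hold a repeated value, 3 lay far below and the median difference was -0.13. Cma1, mast cell chymase, read -4.00 in T11 and 2.83, 3.98, 3.03 and 3.02 in 2151R. Mcpt4 and Cpa3, mast cell proteases, lay 5.23 and 4.92 below and hold repeated values outside 2151R. Mcpt2 read -2.38 in T11 and 6.72, 5.93, 6.66 and 5.60 in 2151R, and Mcpt1, chosen after its values were seen, lay 5.70 below. Kit, the receptor of mast cells and of other cells, lay inside the range. Ccl22, a dendritic cell chemokine, and Flt3, a dendritic cell receptor, lay 2.60 and 2.25 below. T11 lay inside the range of the other models for Mcpt2 and Cma1, and 0.69 below all 14 other samples for Mcpt1.

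Secreted mediators differed one by one. Cx3cl1, the chemokine fractalkine, read 4.36 in T11 and 0.00, -0.71, -0.64 and -0.31 in 2151R, above all 14 other samples by 3.04. Ptges, a prostaglandin E synthase, read -0.79 in T11 and 3.25 to 3.59 in 2151R. Ccl11, an eosinophil chemokine, lay 2.47 below, Pdcd1lg2, a ligand of the PD-1 checkpoint, 3.57 below, and Lcn2, lipocalin, 2.77 below, or 1.32 under quantile normalization.

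**Figure D4:**
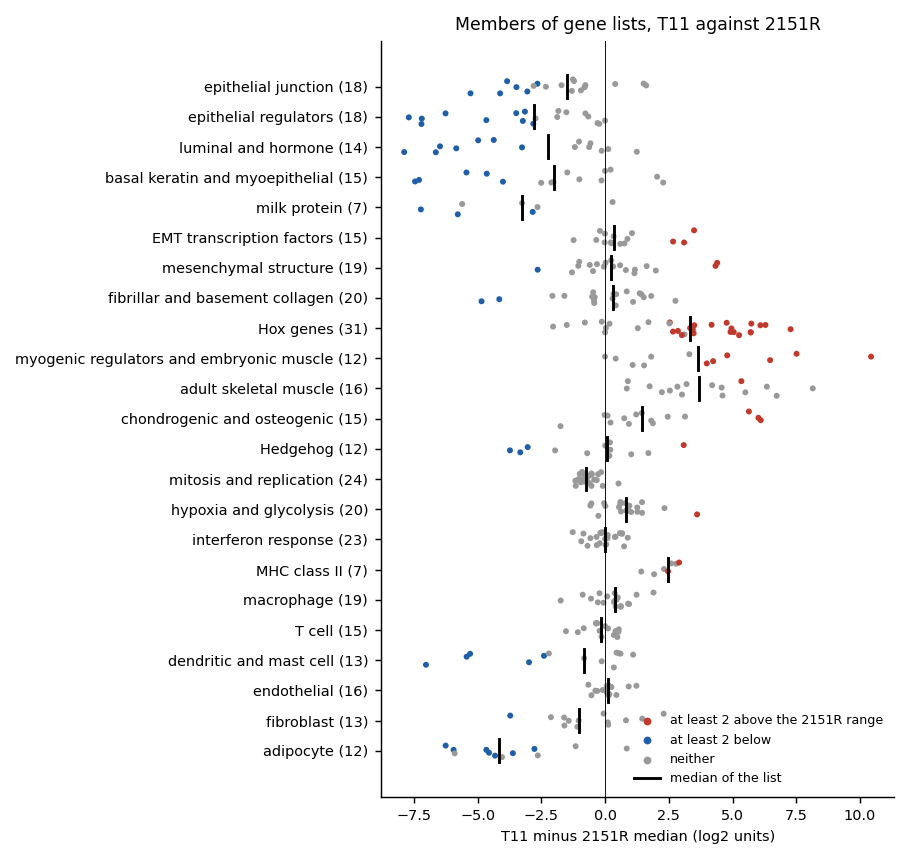
Difference between T11 and the median of 2151R in log2 units (x axis) for each member of 23 gene lists, with the number of members in parentheses, the median as a bar, and members far above or far below the 2151R range in red or blue. Hox genes have a median of 3.34 and adipocyte genes one of -4.18.

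Across all genes without a repeated value or a predicted-gene symbol, the 12 largest distances upward began with Kcnt1, a sodium-activated potassium channel, at 7.78 and Glp1r, the receptor of an incretin hormone, at 7.76. They went on with Ndp, a Wnt-receptor ligand, Cdh15, Slc14a1, a urea transporter, Col25a1, Grin2a, an NMDA receptor subunit, Hoxa6, Tnni3k, Hoxa5, Ddx25 and Crabp2, down to 5.54. Slc14a1 read 6.82 in T11 and -0.22, -0.08, -0.71 and -0.30 in 2151R, and no other sample exceeded 0.00. It was followed among genes far above all 14 others by Cdh15, Flrt1, Glp1r, Grin2a and Pcdh15 at 5.16 to 5.48. Col25a1 read 3.04 in T11 and 2.26 to 3.34 in 2208L, so there the 2151R samples (-5.29 to -3.47) were the ones apart.

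The largest distance downward was that of Fam83g (chromosome 11, 61684058 to 61709950), a gene of a family of casein kinase 1 binding proteins. It read -9.44 in T11 and 1.57, 0.89, 1.44 and 1.44 in 2151R, and -0.64 to 0.34 in the 10 other samples, so T11 stood 8.80 below all 14. Its neighbours in the table did not share this. Grap, before it, read 0.35 in T11 inside a 2151R range of -0.14 to 0.39, and Prpsap2, after it, read 0.03 in T11, 0.09 above the 2151R range. Fam83g overlaps Slc5a10, which was not analysed here.

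Fam83g was followed by Mcpt2, Fcgbp, a mucus protein, Bnc1 (basonuclin, of basal epithelium), Sox10, Pax9, Bhlhe22, Ube2ql1, Tmem108, Prss8, Krt14 and Elf5, at -7.98 to -7.02. Bnc1 read -7.36 in T11 and 1.38, 0.89, 0.41 and 0.93 in 2151R. Ube2ql1 read -0.25 in T11 and 7.03, 6.89, 8.22 and 8.24 in 2151R, and T11 lay inside the range of the other models. Against all 14 other samples the largest downward distances were those of Fam83g, Sox10, Prss8, Krt14, Elf5 and Foxa1.

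Of the genes of the table, 16181 (93.7%) were placed on chromosomes, and 15960 of them fell in 268 windows of 60 neighbouring genes. At chromosome ends 7 of the windows held 30 to 56 genes, and 2 of these 7 were among those called apart. A window was called apart when its median difference exceeded 0.5 with the same sign against each of the 4 samples of 2151R, each comparison centred on all genes. There were 8 windows higher in T11 (2.99%) and 6 lower (2.24%). Whether copy number differs at any of them was not tested.

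The lowest window opened chromosome 6, with a median of -1.55 and -1.59 to -1.46 against the single samples. It held 17 genes far below, among them the receptor kinase gene Met (17463349 to 17573980) and its neighbours. Met read 0.20 in T11 and 4.95, 4.09, 4.43 and 4.85 in 2151R, while Cav1, caveolin, read 0.20 in T11 and 3.26 to 3.71 in 2151R. Cav2, Tes, Capza2, St7 and Lsm8, chosen after their values were seen, lay 3.94 to 4.99 below, and Asns, asparagine synthetase, 3.18 below. For Met, Tes, Capza2 and Lsm8 the 2208L samples were near or above 2151R, with medians of 3.92 to 4.73, and for Cav1 and Asns they were not. The window as a whole differed by 0.13 between T11 and 2208L and by 1.33 between 2151R and 2208L, so the 2151R samples were the high ones.

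The highest window on chromosome 6 held the HoxA cluster, at 0.98. On the X chromosome 4 windows were higher, at 0.61 to 0.95, and the median over its 552 genes was 0.63. There 49 genes (8.88%) lay far above and 8 (1.45%) far below. The same chromosome differed by 0.24 between T11 and 2208L and by -0.32 between 2151R and 2208L. The 1 gene placed on the Y chromosome lay far above, at 3.56 to 5.47 against the single samples of 2151R. For this gene T11 differed from 2208L by 0.38 and 2151R by -4.01. Xist, the RNA that silences one X chromosome, read 1.25 in T11, inside the range of 2151R, whose highest value was 2.34, and its antisense partner Tsix cannot be told apart from it where strand was not used.

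**Figure D5:**
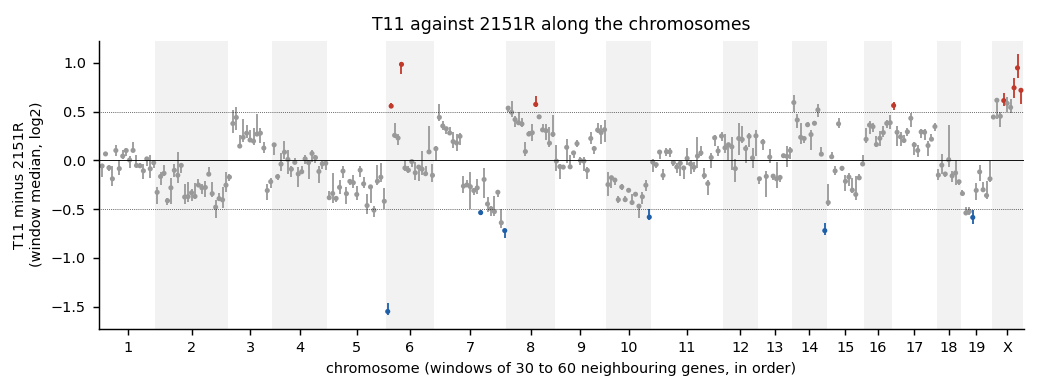
Median difference between T11 and 2151R (y axis, log2, centred on all genes) in 268 windows of 60 neighbouring genes (30 to 56 in 7 of them) in chromosome order (x axis), with the lowest and highest of the 4 single-sample comparisons as a line. Windows apart are red (higher in T11) or blue (lower), and the first window of chromosome 6 lies at -1.55.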

How the data were processed

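Total RNA was made into poly(A) libraries, per the labels' protocols. The data are the log2 table deposited by the authors, with 17271 gene symbols and 15 samples. That values are log2 and median-centred is read from the table's own name. STAR, Salmon and build mm10 are listed in the submitters' processing notes, without roles. The offset before the logarithm, the annotation, the strand setting and the scaling between samples are not given in the sources used here. Values were used as deposited, with Python 3.11.15, pandas 2.3.3, numpy 2.4.6 and matplotlib 3.10.9. No filter on low values was possible because the table holds no levels.

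Model names in the titles gave the groups, and no 2 samples hold identical values. Distances of T11 to the 2151R range were computed for every gene, and the call rule and the window search were tested on simulated data. Named genes are the 12 with the largest distance in each direction and the 6 in each direction against all 14 other samples, without repeated values and predicted-gene symbols. Added to these are Trp53, members of 53 gene lists (944 genes, 852 in the table) far outside the range, and further list members and neighbouring genes chosen after their values were seen. A few genes of these lists are not reported here and were left out of the list counts. The comparison, the members and the lists were chosen with earlier results of these data known. Positions and neighbours are those of RefSeq GRCm38.p6, the build also named mm10, matched by symbol. The SD is that of the 4 samples of 2151R. Nothing in the labels says that they came from separate animals.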

Additional observations from a re-analysis of the deposited data

Results flagged for a closer look

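Among the 4 samples of 2151R, 1 value lay far from the other 3 in 17 of the 285 genes and list means checked by Dixon's criterion for 4 samples. Chance would flag about 1 in 20, here 14.25, if the items were independent and free of ties, which they are not. For Myog, Myf6 and Grhl3 the other 3 samples hold the same value, so any different value is flagged. The list means also share genes with each other and with the single genes. The number flagged is therefore not read against chance. No cause was tested for any of them.

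Replicate 3 was the sample apart for muscle genes. Acta1 read 6.94 there and -5.17 to -4.19 in the others, Pvalb 9.45 and -3.19 to -1.93, Myf6 3.46 and -1.69, and Myog -0.97 and -2.33. The mean of adult skeletal muscle genes was 4.44 against -3.96 to -3.79. In the same replicate Timp2 read 0.60 and Snai1 -0.40, and the means of B and plasma cell genes (-0.25 against 0.45 to 0.53) and of checkpoint genes (-0.14 against 0.19 to 0.26) were low.

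Replicate 2 was apart for Spry1 at -0.29 (others 0.10 to 0.16), Cdh1 at -6.13 (others -5.36 to -5.34), H2-Aa at -0.29 (others -1.39 to -1.24) and Esr1 at 0.78 (others 0.98 to 1.01). Replicate 1 was apart for Pax9 at 0.94 (others 0.77 to 0.79), Itga10 at 0.11 (others -0.46 to -0.43) and Grhl3 at -7.47 (others -6.22). Replicate 4 was apart for Lep at 4.53 (others 5.93 to 6.19). Since the distance of T11 is taken from the nearest sample, the single high or low samples shorten the distances of Lep and Itga10. They also end the calls of Cdh1, H2-Aa, Acta1, Pvalb and Myf6. Without replicate 2, Cdh1 lay 2.31 below the range and H2-Aa 2.77 above.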

How the results depend on the processing

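The counts follow the distance that is asked for. With 1 log2 unit, T11 lay above the 2151R range at 1534 genes and below it at 1110, and above or below all 14 other samples at 510 and 341. With 3 units these counts were 245, 239, 79 and 88. Measured from the mean of 2151R, 917 genes lay far above and 724 far below. Under quantile normalization, the genes far below all 14 other samples went from 163 to 66, while the other counts stayed within 1.5 times. Leaving out each 2151R sample in turn gave 577 to 656 genes far above, 469 to 500 far below, 179 to 189 above all others, 169 to 179 below all others and 14 to 20 windows. With 100 genes a window, 6 windows were apart. Without genes that hold a repeated value, 461 and 393 genes lay far above and far below. No named gene with a far call moved to the other side of the 2151R range under any alternative run. Cldn7 moved inside the range under quantile normalization. Named genes without a far call were not checked for a change of direction. Quantile normalization ended the far call of 29 named genes, many of them epithelial, and centring each sample on its median ended that of 6. With only the 2 samples titled NT and NT2, 6 named genes gained the call. The cause of these shifts was not tested. No paired analysis was possible because T11 has 1 sample and the replicate numbers, given in accession order, pair no samples. Without counts, no limit set by depth can be given, and very low values cannot be told from the absence of reads.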
